A study of Homo sapiens with 6 samples.

Results

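Complement components, receptors and regulators were examined in MV4-11 cells after PRMT5 knockdown. MV4-11 is a cell line established from acute myeloid leukaemia, with an MLL rearrangement and the FLT3 internal tandem duplication. One group of 3 libraries came from cells stably transduced with lentivirus carrying a short hairpin RNA against PRMT5, the enzyme that symmetrically dimethylates arginines. The other group of 3 came from cells stably transduced with a scrambled hairpin. Cells of both groups therefore carried an integrated lentivirus, and the labels name no second PRMT5 hairpin, no clone and no rescue. The 10 genes were taken by symbol from 23698 gene rows: C3, CFD and CFP as secreted components, C3AR1, C5AR1 and CR1 as receptors, CD46, CD55 and CD59 as membrane regulators, and C1QBP. C3 was chosen by its wide spread of CPM between these same libraries, so its values are given as a description without a test. The other 9 were chosen by function, with earlier results of these data known.

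Complement is a cascade of plasma and membrane proteins that tags and lyses cells. Its classical, lectin and alternative routes converge on cleavage of C3, after which C3b coats the surface and the fragments C3a and C5a signal to myeloid cells. Host cells carry regulators that break up the convertases or block the terminal pore. Most plasma C3 is made by the liver, while monocytes and granulocytes make properdin and factor D and carry the fragment receptors.

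Poly(A) RNA-seq gave 16408484 to 19077106 estimated counts per library. PRMT5 itself was at 103, 71.6 and 52.99 CPM (reads scaled to library depth by TMM) in knockdown 1 to 3. It was at 133, 53.2 and 158 CPM in the libraries labelled scrambled control 1 to 3, so the library labelled control 2 lay at the knockdown level and went against its label. That library also stood apart across all genes. Its log2 CPM correlated at 0.876 to 0.923 with the other 5 libraries, which correlated with one another at 0.952 to 0.995 (across genes, which are not replicates). All 10 markers of the myelomonocytic line were counted, with a summed level of 1151 to 2140 CPM over knockdown and 1195 to 1871 CPM over control libraries. CD14, the monocyte co-receptor, stayed between 0.389 and 1.09 CPM.

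None of the 10 members separated the 2 groups. Of the 9 members tested, 0 had an adjusted p under 0.05 in edgeR's quasi-likelihood test, and 0 had an unadjusted p under 0.05. Across all 13668 tested genes 0% were called, and 1.77% had an unadjusted p under 0.05. Limma-voom also called 0 of the 9, and 0 at an unadjusted p under 0.05. DESeq2 returned no p for C3AR1 and called 0 of the others, with 0 at an unadjusted p under 0.05. In no member did the 3 knockdown libraries all lie on one side of the 3 controls, a state that 3.14% of tested genes showed with the knockdown higher and 3.1% with it lower. Of the 9, 4 had a positive and 5 a negative log2 difference of knockdown minus control, with a median of -0.16, beside -0.00069 over all tested genes. Fewer expressing cells and less RNA per cell cannot be told apart in these bulk libraries. All 10 members passed the filter on low counts, C5AR1 with only 3 libraries at 10 counts or more.

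**Figure D1:**
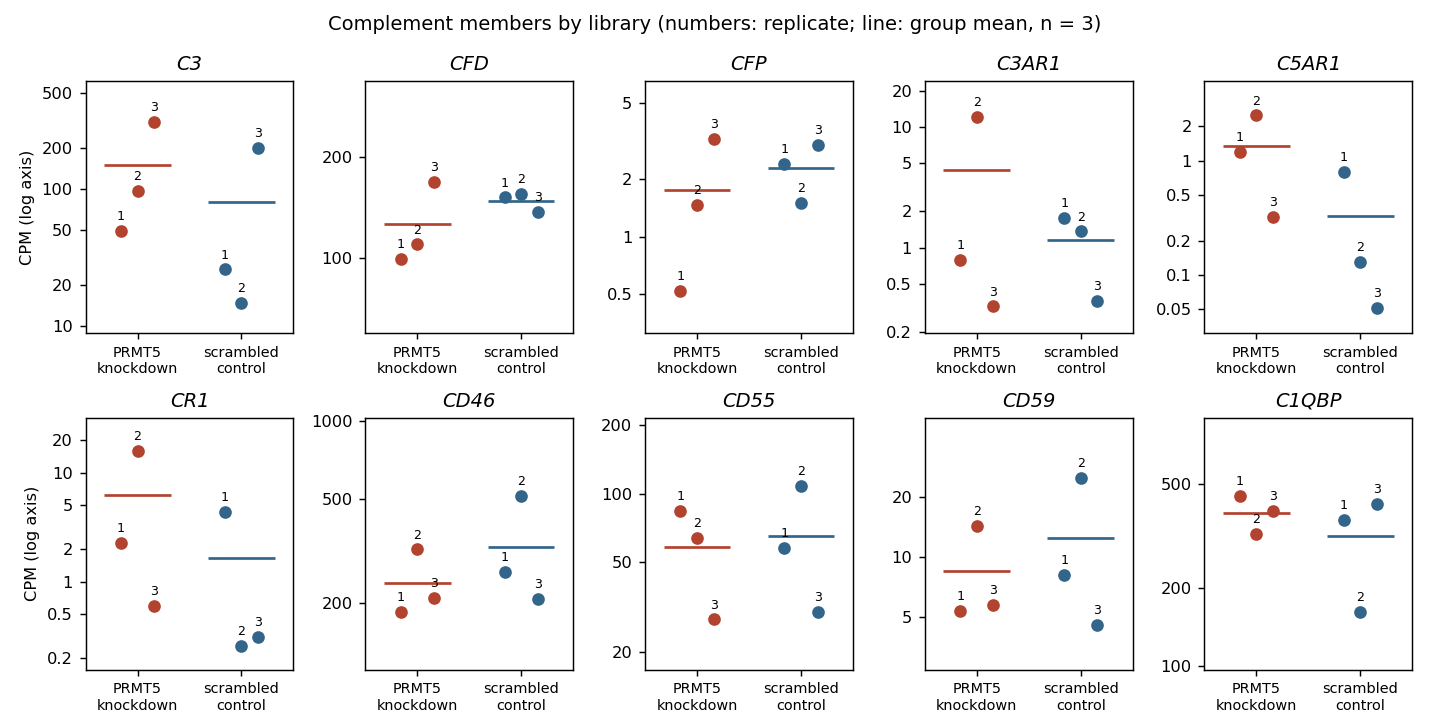
Level of each complement gene in CPM (log axis) in 3 PRMT5 knockdown libraries (left, red) and 3 scrambled control libraries (right, blue), with the replicate number beside each point and a line at the group mean. The groups overlap in all 10 panels, from the 61.4-fold range of CR1 to the 1.70-fold range of CFD.

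Levels between genes were compared per kilobase of the longest coding transcript. C1QBP was the most abundant by mean, at 301 CPM per kb over the 6 libraries, with library values of 138 to 385. In the library labelled control 2 it was at 138, below CD46 at 153. CFD followed at 114 and CD46 at 84.1 CPM per kb, with library values of 82.7 to 140 for CFD and 54.8 to 153 for CD46, so the order of these neighbours was not clear. C3 and CD55 had means of 22.0 and 21.4 CPM per kb and overlapped widely. CD59, C3AR1 and CFP lay at 1.37, 1.33 and 1.18 CPM per kb and overlapped too. CR1 and C5AR1 were lowest by mean, at 0.459 and 0.360 CPM per kb. Their library values overlapped, at 0.0302 to 1.85 for CR1 and 0.0224 to 1.08 for C5AR1.

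C3, the protein on which all routes converge, had the widest swing among the abundant members. It was at 49.4, 96.8 and 308 CPM in knockdown 1 to 3, against 25.9, 14.9 and 199.7 CPM in the libraries labelled scrambled control 1 to 3. Both libraries numbered 3 were high, and control 3 exceeded knockdown 1 and 2. The highest library held 20.7 times the lowest, and 1.10% of tested genes had a range at least as wide on the log2 scale. That spread is what chose the gene. The group means were 151 ± 137 CPM over knockdown and 80.2 ± 104 CPM over control libraries (SD, n = 3 each), a fitted log2 difference of 0.92. The difference of same-numbered libraries, in log2 CPM, came to 0.93, 2.69 and 0.62 in pairs 1 to 3. Hence C3 was higher in the knockdown library of each pair, as were 14.7% of all tested genes. The fitted difference was -0.14 without knockdown 3, 2.89 without control 3 and 0.42 without the library labelled control 2. Without control 1 it was 0.49.

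Markers of hepatocytes and fibroblasts, which make C3 elsewhere, were mostly low, but SERPINA1, PDGFRB and LUM passed the low-count filter. Of 6 hepatocyte markers, APOB and TTR were at 0 in every library, and the summed level was 0.313 to 1.40 CPM over knockdown and 0.519 to 0.984 CPM over control libraries. Of 6 fibroblast markers, COL1A2 and COL3A1 were at 0 in every library. The sum of the 6 was 1.51 to 4.19 CPM over knockdown and 2.07 to 8.95 CPM over control libraries. The highest value was in the library labelled control 2, where COL1A1 was at 4.99 CPM. A part of other cell types in the C3 levels was not tested. LYZ, the lysozyme gene of monocytic cells, was at 544, 482 and 1268 CPM in knockdown 1 to 3 and at 430, 35.3 and 980 CPM in the libraries labelled scrambled control 1 to 3. Like C3 it was highest in both libraries numbered 3 and lowest in the library labelled control 2. Other markers on the myelomonocytic list ran differently. CD68 and ITGAM were highest in the library labelled control 2, at 139 and 115 CPM, and MPO and CSF1R in control 1, at 503 and 18.3 CPM. The part of monocytic maturity in the C3 levels was not tested.

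The 5 genes with the pattern most like that of C3 were found by the root-mean-square difference of centred log2 CPM over the 6 libraries, among 9852 genes with at least 5 CPM. CCNE1, a cyclin of the G1/S step, was closest at 0.75. ALDH1A3, a retinaldehyde dehydrogenase, was at 0.76 and ESCO2, a cohesin acetyltransferase, at 0.82. HSP90AA1, the inducible cytosolic HSP90, was at 0.86, and its pseudogene HSP90AA6P, which may share its reads, at 0.85. None followed C3 closely: CCNE1 measured 12.1, 17.7 and 25.7 CPM in knockdown 1 to 3, against 11.7, 3.05 and 26.7 CPM in the libraries labelled scrambled control 1 to 3.

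**Figure D2:**
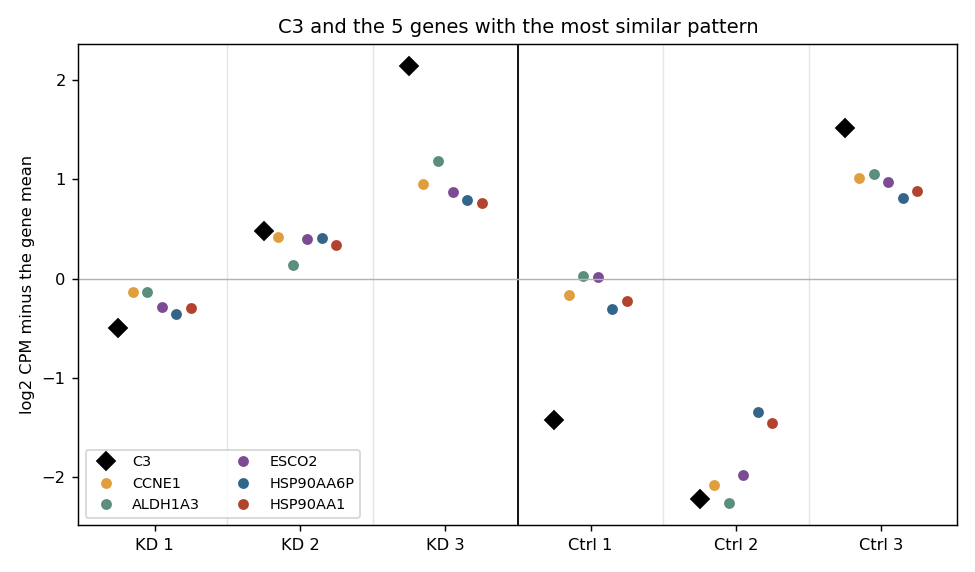
Log2 CPM minus each gene's mean over the 6 libraries, for C3 (black diamonds) and the 5 genes with the smallest root-mean-square difference from it, in knockdown (KD) 1 to 3 and control (Ctrl) 1 to 3. All 6 genes are highest in the libraries numbered 3 and lowest in the library labelled control 2, while C3 alone is also more than 1.4 below its mean in control 1.

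CFD, factor D, the serine protease that activates the alternative route, was the steadiest member. It measured 99.3, 110 and 169 CPM in knockdown 1 to 3, against 151, 155 and 137 CPM in the libraries labelled scrambled control 1 to 3. Knockdown 1 and 2 lay below all 3 controls and knockdown 3 above them. The means were 126 ± 37.3 CPM over knockdown and 148 ± 9.30 CPM over control libraries (SD, n = 3 each). The log2 difference was -0.23 (SE 0.25, 95% interval -0.82 to 0.35, edgeR adjusted p = 0.926). It kept its sign in all 15 alternatives, from -0.50 to -0.096.

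CFP, properdin, which stabilises the alternative C3 convertase, was scarce. It measured 0.522, 1.46 and 3.24 CPM in knockdown 1 to 3, against 2.38, 1.49 and 3.00 CPM in the libraries labelled scrambled control 1 to 3. Knockdown 1, with 10 rounded counts, was the lowest library. The exact 95% binomial interval of that value, as CPM of the unscaled library total, was 0.251 to 0.964, and it overlapped those of knockdown 2 (0.937 to 2.18) and of the library labelled control 2 (0.832 to 1.97). Knockdown minus control came to a log2 difference of -0.40 (SE 0.66, 95% interval -1.94 to 1.14, edgeR adjusted p = 0.926), and 0.032 without knockdown 1.

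The 3 receptors shared a peak in knockdown 2 but differed elsewhere. The root-mean-square difference of centred log2 CPM was 0.79 between C5AR1 and CR1. From C3AR1 it was 1.13 to each of these, beside 1.27 to CD59. Each was highest in knockdown 2 and low in both libraries numbered 3, and their summed level was 4.23, 30.5 and 1.24 CPM in knockdown 1 to 3, against 6.92, 1.75 and 0.725 CPM in the libraries labelled scrambled control 1 to 3. RefSeq promoters (GRCh38.p14, 250 bases before to 50 after the transcript start) were found for 9 of the 10 members, and C3 had no entry. Those of the 3 receptors are shown because these genes shared the peak in knockdown 2, with that of C1QBP, the most abundant member by mean, beside them. Capitals mark CG dinucleotides, which read the same on both strands.
C3AR1, chr12:8066310-8066609, minus strand: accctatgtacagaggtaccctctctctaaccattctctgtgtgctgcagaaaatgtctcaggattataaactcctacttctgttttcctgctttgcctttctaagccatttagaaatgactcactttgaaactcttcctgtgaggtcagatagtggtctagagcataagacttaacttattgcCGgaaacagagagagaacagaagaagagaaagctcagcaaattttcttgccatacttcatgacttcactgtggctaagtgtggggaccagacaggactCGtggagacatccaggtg
C5AR1, chr19:47309611-47309910, plus strand: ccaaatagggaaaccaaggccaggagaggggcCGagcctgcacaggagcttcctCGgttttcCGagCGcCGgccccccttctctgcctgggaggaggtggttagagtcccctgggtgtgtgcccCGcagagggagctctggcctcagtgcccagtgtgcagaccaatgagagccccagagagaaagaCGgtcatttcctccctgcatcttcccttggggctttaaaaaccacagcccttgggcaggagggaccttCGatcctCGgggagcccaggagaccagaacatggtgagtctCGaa
CR1, chr1:207495907-207496206, plus strand: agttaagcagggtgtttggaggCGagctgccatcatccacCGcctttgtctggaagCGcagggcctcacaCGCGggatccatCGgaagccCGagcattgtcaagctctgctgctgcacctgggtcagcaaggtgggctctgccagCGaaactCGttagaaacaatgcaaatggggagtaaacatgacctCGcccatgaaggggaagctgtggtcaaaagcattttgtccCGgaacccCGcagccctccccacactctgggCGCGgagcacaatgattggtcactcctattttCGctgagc
C1QBP, chr17:5439106-5439405, minus strand: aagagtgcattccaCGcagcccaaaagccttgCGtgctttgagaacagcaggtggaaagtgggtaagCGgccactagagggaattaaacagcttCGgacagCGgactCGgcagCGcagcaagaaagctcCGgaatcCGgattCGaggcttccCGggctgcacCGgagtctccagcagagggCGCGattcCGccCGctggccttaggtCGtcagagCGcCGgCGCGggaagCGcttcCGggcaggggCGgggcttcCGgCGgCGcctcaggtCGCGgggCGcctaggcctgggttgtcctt
The C3AR1 window held 2 CG dinucleotides, that of C5AR1 10, that of CR1 15 and that of C1QBP 30, where the median over 35116 promoters was 14. The letters GAGGAA, the purine-rich core read by ETS factors such as PU.1, were searched on both strands. They occurred at 2 places in the C5AR1 window and at none in the C3AR1, CR1 and C1QBP windows, and 27.9% of all promoters held them. A match is a description of letters and does not show binding.

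C3AR1, the receptor of the anaphylatoxin C3a, was at 0.783, 12.1 and 0.324 CPM in knockdown 1 to 3. The libraries labelled control 1 to 3 held 1.76, 1.36 and 0.363 CPM. Knockdown 2, with 199 rounded counts, was the only library above 2 CPM. In the fit the log2 difference was 1.92 (SE 1.28, 95% interval -1.06 to 4.90, edgeR adjusted p = 0.926) and rested on that library, since without it the value was -1.06. By pair, in log2 CPM, it was -1.06, 3.05 and -0.12. Limma-voom gave 0.58 and a fit blocked on replicate number 0.75, while DESeq2 returned no p for this gene.

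C5AR1, the C5a receptor that draws neutrophils and monocytes to C5a, was the scarcest member by mean. It was at 1.20, 2.49 and 0.324 CPM in knockdown 1 to 3, against 0.794, 0.130 and 0.0518 CPM in the libraries labelled scrambled control 1 to 3. In rounded counts these were 23, 41 and 6 in the knockdown and 14, 2 and 1 in the control libraries. The knockdown library was higher in each pair, as for 14.7% of all tested genes. The ratio of knockdown to control was 1.51 (exact 95% counting interval 0.746 to 3.18) in pair 1. It was 19.2 (4.99 to 164) in pair 2 and 6.26 (0.760 to 288) in pair 3. Such intervals cover counting error only. The log2 difference was 2.03 (SE 1.04, 95% interval -0.39 to 4.46, edgeR unadjusted p = 0.0884 and adjusted p = 0.926). C5AR1 was the member with the smallest p, and its difference was positive in all 14 alternatives that kept the gene, between 0.88 and 3.92. With the replicate number as a block it was 2.15 (edgeR unadjusted p = 0.0368, adjusted p = 0.709).

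CR1, the receptor for C3b and C4b that clears immune complexes and inhibits convertases, had the widest range of the 10. It was at 2.25, 15.9 and 0.595 CPM in knockdown 1 to 3, against 4.37, 0.259 and 0.311 CPM in the libraries labelled scrambled control 1 to 3. Knockdown 2 and control 1 were high and the other 4 libraries were lower. Pair 2 compared 262 with 4 rounded counts, a ratio of 61.4 (exact 95% counting interval 23.7 to 227). In pair 1 the ratio was 0.514 (0.345 to 0.756), below 1, and in pair 3 it was 1.91 (0.649 to 6.30). Knockdown minus control came to a log2 difference of 1.92 (SE 1.39, 95% interval -1.33 to 5.17, edgeR adjusted p = 0.926). It was -0.21 without knockdown 2, 4.44 without control 1 and 1.43 without the library labelled control 2. Reads of the related gene CR1L could be shared with CR1. CR1L was at 0.850 CPM in knockdown 2 and 0.227 CPM in control 1, and at 0 in the rest. Sharing of reads was not tested.

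**Figure D3:**
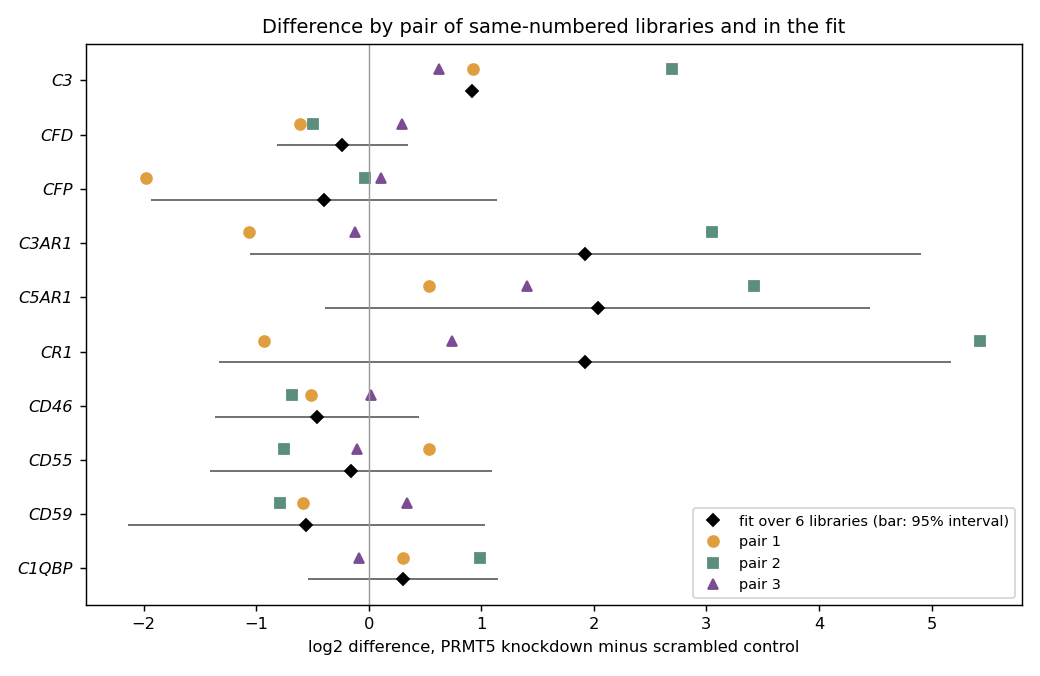
Log2 difference of PRMT5 knockdown minus scrambled control for each member, in 3 pairs of same-numbered libraries (coloured symbols, from log2 CPM with a prior count of 2) and in the fit over 6 libraries (black diamond, with its 95% interval except for C3). C3 and C5AR1 lie above 0 in all 3 pairs, as do 14.7% of all tested genes. The 95% intervals shown all include 0, and pair 2 gives the highest value for C3, the 3 receptors and C1QBP.

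The membrane regulators did not differ between the groups beyond their spread, and the library labelled control 2 held the most of each. CD46, the cofactor with which factor I cleaves C3b and C4b, measured 185, 321 and 209.7 CPM in knockdown 1 to 3, against 264, 515 and 207 CPM in the libraries labelled scrambled control 1 to 3. The means were 239 ± 72.7 CPM over knockdown and 328 ± 164 CPM over control libraries (SD, n = 3 each). In the fit the log2 difference was -0.46 (SE 0.39, 95% interval -1.37 to 0.44, edgeR adjusted p = 0.926). Without the library labelled control 2 it was 0.023.

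CD55, decay-accelerating factor, which breaks up C3 convertases, measured 83.6, 63.9 and 28.0 CPM in knockdown 1 to 3, against 57.6, 108 and 30.1 CPM in the libraries labelled scrambled control 1 to 3. Both libraries numbered 3 were low. The log2 difference was -0.16 (SE 0.54, 95% interval -1.41 to 1.09, edgeR adjusted p = 0.961). It turned to 0.42 without the library labelled control 2 and to 0.18 without knockdown 3.

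CD59, which blocks assembly of the membrane attack complex, measured 5.38, 14.3 and 5.79 CPM in knockdown 1 to 3, against 8.11, 24.8 and 4.56 CPM in the libraries labelled scrambled control 1 to 3. It followed CD46, with a root-mean-square difference of 0.38 between their centred log2 CPM, the smallest among the 45 pairs of members. Knockdown minus control came to a log2 difference of -0.55 (SE 0.68, 95% interval -2.14 to 1.03, edgeR adjusted p = 0.926), and 0.43 without the library labelled control 2.

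C1QBP, first found as a protein that binds the globular heads of C1q and mostly located in mitochondria, was lowest in the library where the regulators were highest. It measured 449.6, 321 and 395 CPM in knockdown 1 to 3, against 364, 161 and 421 CPM in the libraries labelled scrambled control 1 to 3. The library labelled control 2 was the lowest, and the other 5 lay within 321 to 449.6 CPM. In the fit the log2 difference was 0.30 (SE 0.36, 95% interval -0.54 to 1.15, edgeR adjusted p = 0.926), and -0.010 without the library labelled control 2. Reads at C1QBP may also belong to RPAIN and DHX33, coding genes that overlap it in GENCODE v29. The same holds for C3 and GPR108 and for CD59 and AL049629.2. The pseudogene CDCA4P4 overlaps CD46, and noncoding genes overlap C1QBP, C3, CFP and CR1.

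**Figure D4:**
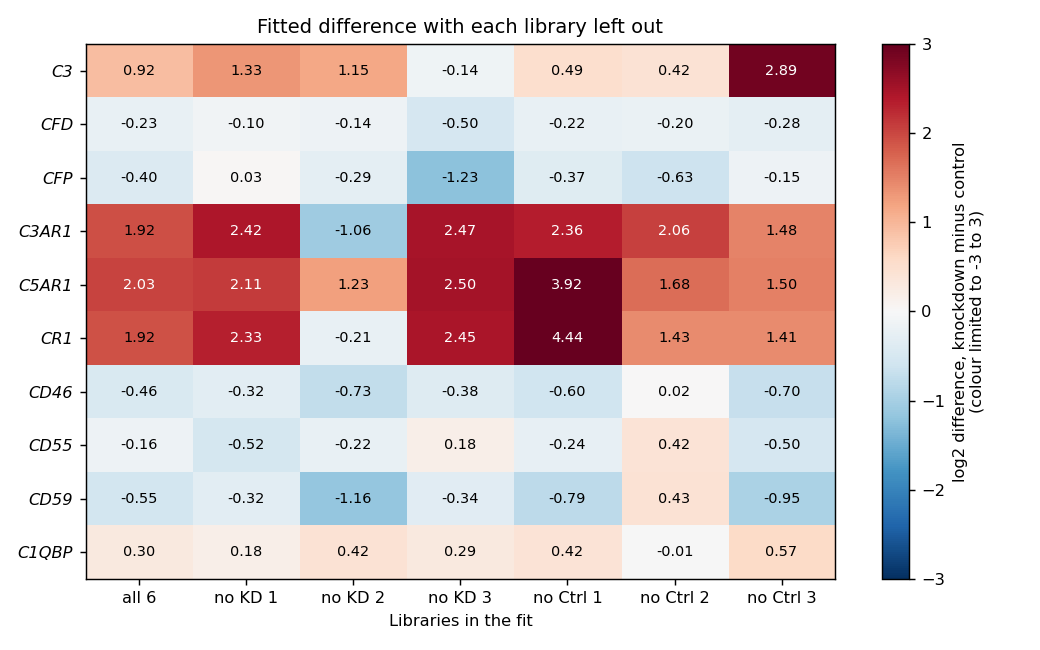
Fitted log2 difference of knockdown minus control for each member with all 6 libraries and with each library left out in turn (KD, knockdown; Ctrl, control). Leaving out 1 library turned the sign of 8 members, and CFD and C5AR1 kept theirs in all 6 of these fits.

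The rest of the complement system was largely silent in these cells. Of 50 other complement genes with a row, 17 were at 0 in every library and 15 passed the low-count filter. None of the 15 passed the test in edgeR, 0 had an unadjusted p under 0.05, and DESeq2 and limma-voom called 0 as well. Differences were positive for 7 and negative for 8, with a median log2 difference of -0.035. Both C4A and C4B, whose values were identical, are counted among the 8. C1S, a protease of the C1 complex, did not pass the filter and was below 1 CPM in every library, at 0.157, 0.243 and 0.0541 CPM in knockdown 1 to 3, against 0.511, 0.908 and 0.259 CPM in the libraries labelled scrambled control 1 to 3. It and CFHR3, likewise untested, were the 2 of the 50 whose knockdown libraries all lay below the controls. Of the 15 that passed the filter, 0 lay wholly below and 0 wholly above the controls. Over all tested genes the shares were 3.1% and 3.14%. CFHR3 was near the counting floor. It was at 0 in every knockdown library, against 0.0567, 0.0648 and 0.104 CPM in the libraries labelled scrambled control 1 to 3. Both are named after their values were seen. Among genes at 0 throughout were C1QB, C1QC, C6, C9, CR2, CFI and SERPING1.

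Among the most abundant of these genes were chains of receptors. CALR, calreticulin, which binds C1q at the surface, measured 1669, 2007 and 1577 CPM in knockdown 1 to 3, against 1297, 1234 and 1621 CPM in the libraries labelled scrambled control 1 to 3. Its log2 difference was 0.34 (SE 0.24). ITGB2, the shared beta chain of the iC3b receptors CR3 and CR4, had -0.035. Its partners ITGAM and ITGAX had -0.57 and -2.21. ITGAX measured 7.26, 42.1 and 6.11 CPM in knockdown 1 to 3. The libraries labelled scrambled control 1 to 3 held 74.7, 177 and 5.90 CPM. Both libraries numbered 3 and knockdown 1 were low, and the library labelled control 2 was highest. By pair, in log2 CPM, the ITGAX difference was -3.34, -2.07 and 0.048. CD93, once described as a C1q receptor, had 0.083, and C1RL, a C1r-like protease, had 0.19. C4A and C4B had identical values in every library and a log2 difference of -0.068. Their sequences are near-identical, so their reads cannot be divided. The edgeR adjusted p was 0.926 or above for each of these 8 genes.

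**Figure D5:**
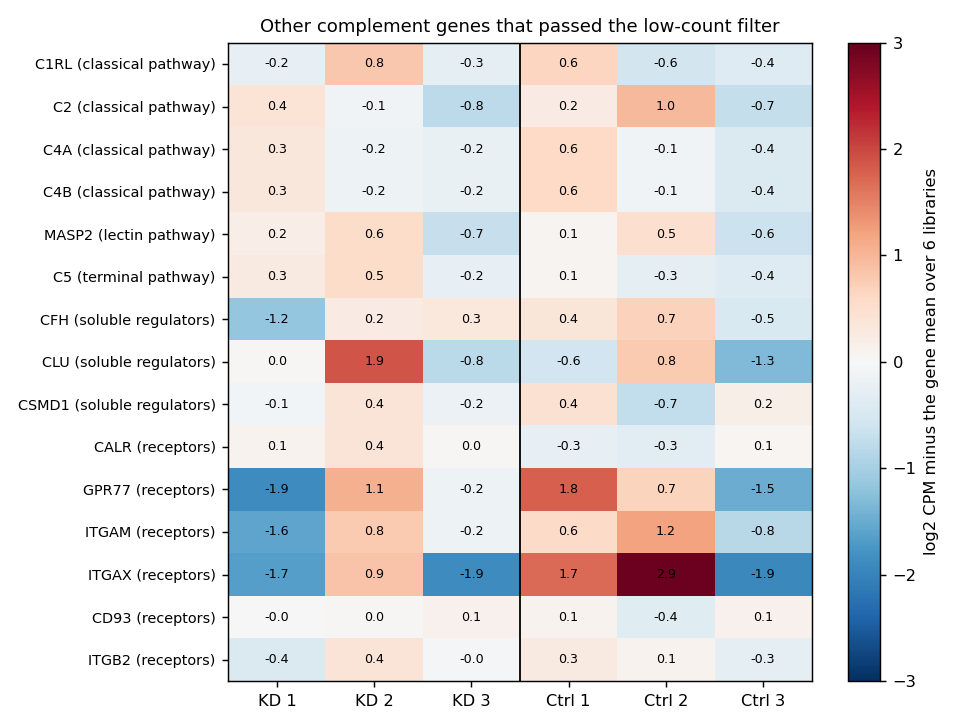
Log2 CPM minus the gene's mean over 6 libraries for the 15 other complement genes that passed the low-count filter, in knockdown (KD) 1 to 3 left of the line and control (Ctrl) 1 to 3 right of it. ITGAX spans the widest range, with its highest value in the library labelled control 2, while CD93 and CALR vary little.

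CD55 and CD59 are held on the membrane by a glycosylphosphatidylinositol (GPI) anchor, so the 28 genes of anchor synthesis were read beside them. All 28 passed the filter, 18 with a positive and 10 with a negative difference, a median log2 difference of 0.15 and 0 calls (edgeR; 0 at an unadjusted p under 0.05). GPAA1 and DPM1, the most abundant, had log2 differences of 0.12 and 0.24. In 3 genes, PIGC, PIGM and PIGY, all knockdown libraries lay above all controls, and in 1, PGAP2, they lay below, beside 3.14% and 3.1% of all tested genes. These 4 are named after their values were seen.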

How the data were processed

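RNA was measured by poly(A) RNA-seq in 3 PRMT5 knockdown and 3 scrambled control libraries. The authors deposited estimated counts for each gene and library, unscaled; 40.3% to 42.3% were whole (tolerance 1e-06), and steps were of 1/51 of a read. Per the submitters' processing notes, CASAVA 1.9, TopHat2 (version 2), edgeR and hg19 were used, in roles that are not stated; the counter, its annotation and strand use are not given in the sources at hand. Overlapping genes may therefore share reads.

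Values were rounded and tested over all 13668 genes kept by filterByExpr (minimum count 10) in edgeR 4.0.16 (R 4.3.3). After TMM scaling, glmQLFit and glmQLFTest were run with a group term alone, two-sided, with Benjamini-Hochberg adjustment and a threshold of 0.05. Log2 CPM used a prior count of 2, which pulls low values together. Alternatives were other scalings, filters, DESeq2 1.42.0, limma-voom (limma 3.58.1), a replicate block, both libraries numbered 2 left out, and each library left out. The scripts were tested on simulated data. With 3 against 3 libraries an exact permutation p cannot be under 0.1.

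The titles number both groups 1 to 3 without saying what a number marks. Same-numbered libraries are described as pairs. Deviations from the group means correlated over genes at 0.127, 0.394 and 0.566 in pairs 1 to 3. Knockdown 2 with control 1 gave 0.164, above the 0.127 of pair 1. Pair 1 thus rests on the number in the titles and not on the values. Nothing says that replicates were separate cultures, so p-values measure only the spread between these libraries.

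The members and lists were chosen with earlier results of these data known. Named were all 10 members, the 8 most abundant other complement genes, the 5 genes most like C3, the 2 most abundant anchor synthesis genes, and PRMT5. Per-kilobase levels used the longest coding transcript of GENCODE v29, another build than the counts. Of the marker lists, summed levels over the 6 libraries were 15.3 to 52.1 CPM for 5 epithelial and 20.6 to 74.7 for 5 endothelial genes. They were 7.52 to 16.1 for 5 B cell, 0 to 0.227 for 4 T cell and 0 to 1.10 for 5 erythroid genes. Most of the endothelial sum was PECAM1, at 20.6 to 74.5 CPM, and most of the B cell sum was PAX5, at 5.97 to 15.6 CPM. Most of the epithelial sum was KRT8 and KRT18.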

Additional observations from a re-analysis of the deposited data

How the results depend on the processing

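The count of called genes was 0 in each of the 15 alternatives, for all tested genes, for the 9 members and for the other complement genes. DESeq2 gave no p for C3AR1, so its count covers the other members. Over the 9 members and these alternatives the smallest adjusted p was 0.529. Of 148 member values under an alternative, 12 had the opposite sign. Without the library labelled scrambled control 2, CD46 was at 0.023, CD55 at 0.42, CD59 at 0.43 and C1QBP at -0.010. Without knockdown 2, C3AR1 was at -1.06 and CR1 at -0.21, and without both libraries numbered 2 they were at -0.93 and -0.71 and CD55 at 0.35. CFP was at 0.032 without knockdown 1, and CD55 at 0.18 without knockdown 3. C3, which was not tested, was at -0.14 without knockdown 3 and 2.89 without control 3. Left-out fits for C3 ranged from -0.14 to 2.89, for C3AR1 from -1.06 to 2.47, for C5AR1 from 1.23 to 3.92, for CR1 from -0.21 to 4.44, for CFP from -1.23 to 0.032, for CD46 from -0.73 to 0.023, for CD55 from -0.52 to 0.42, for CD59 from -1.16 to 0.43 and for C1QBP from -0.010 to 0.57. The cause of these shifts was not tested. A minimum count of 30 removed C3AR1 and C5AR1. With the replicate number as a block, 0 genes were called, and 436 had an unadjusted p under 0.05 against 242 without it. The block changed no call. Other scalings moved the median of all genes by at most 0.041 on the log2 scale. Depth limits the receptors and CFP most, where several libraries hold under 25 counts.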

Other observations

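The nearest patterns of other members were looked up in the same way as for C3, and the genes named here were chosen after their values were seen. For C3AR1 the closest gene was CHI3L1, a secreted chitinase-like protein of myeloid cells, with a root-mean-square difference of 0.28. CHI3L1 was at 277, 3595 and 184 CPM in knockdown 1 to 3, against 431, 509.6 and 125 CPM in the libraries labelled scrambled control 1 to 3, so knockdown 2 was high here too. For CR1 it was PRG2, the eosinophil granule major basic protein, at 0.53. PRG2 measured 8.15, 39.5 and 3.78 CPM in knockdown 1 to 3, against 9.13, 1.43 and 2.12 CPM in the libraries labelled scrambled control 1 to 3. For C1QBP the closest genes were AAR2 at 0.028 and ZBTB24 at 0.041. HEATR1, a nucleolar factor of ribosomal RNA synthesis, came next at 0.046. It measured 469, 366 and 447 CPM in knockdown 1 to 3, against 395, 172 and 467 CPM in the libraries labelled scrambled control 1 to 3.

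Some members are genomic neighbours in GENCODE v29. On chromosome 1 the coding genes CD55, CR2, CR1, CR1L and CD46 follow one another. CD55 and CD46 were highest in the library labelled control 2, where CR1 was lowest, and CR2 was at 0 in every library. On chromosome 19, CFD lies beside ELANE, PRTN3 and AZU1, which encode azurophil granule proteins. CFD had a log2 difference of -0.23, and ELANE, PRTN3 and AZU1 had 0.66, 0.73 and 0.12.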
